A study of Mus musculus with 5 samples.

Results

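The genes described here are 8 transcription factor genes that mark or act on the anterior-posterior (thumb to little finger) axis of the limb bud: Hand1, Hand2, Alx1, Alx4, Pax1, Pax9, Emx2 and Barx1. They were taken by name, all 8 were found in each of the 5 count tables, and they are 8 of 23284 gene symbols. RNA was measured in mouse forelimb at embryonic days E10.5 and E11.5 by RNA sequencing of ribosome-depleted total RNA. The E10.5 group was 1 library of forelimb bud with the strain label CD1. The E11.5 tissue was micro-dissected distal forelimb of a mixed C57BL/6 - CD1 background, with 2 wild-type libraries and 2 libraries of Hoxa13-/-;Hoxd13-/- embryos, which carry 2 disrupted copies of each gene and are called mutant. The Hoxa13 allele carries a neomycin cassette in the coding region and the Hoxd13 allele a lacZ reporter in the first exon, so reads from other parts of either transcript can remain. The 2 libraries of an E11.5 genotype came from separate tissue pools, and the labels give N = 4 for the pooled samples.

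The limb bud is patterned from anterior to posterior by mutual repression between the anterior transcription factor Gli3 and the posterior basic helix-loop-helix (bHLH) factor Hand2, which sets up the posterior signalling centre that makes Shh. Alx4 and the related Alx1 are paired-type homeodomain factors of the anterior mesenchyme, and loss of Alx4 gives extra anterior digits. Pax9 and Pax1 are paired-domain paralogues. Pax9 marks the anterior distal mesenchyme, and Pax1 marks the sclerotome of the somite and the anterior proximal bud that forms shoulder structures. Emx2 is a homeodomain factor needed for the shoulder blade, Barx1 is a homeodomain factor of facial mesenchyme, stomach and joints, and Hand1 is the bHLH paralogue of Hand2, best known from the heart.

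Reads counted in genes totalled 45115494 to 84172202 per library, so that 1 read was worth between 0.0119 and 0.0222 CPM (a gene's counts scaled to the library total). Hoxd13 measured 247 and 246 CPM in wild type and 47.7 and 40.0 in the mutant (edgeR adjusted p = 1.12e-07), and Hoxa13 did not pass the test (adjusted p = 0.438). The 8 limb mesenchyme genes listed for this check were all present in the E11.5 libraries, at 16.7 CPM (Fgf10) to 741 CPM (Prrx1), with the forelimb gene Tbx5 between 83.5 and 101. In the mutant 4 of the 8 fell (Msx1 -0.84, Fgf10 -0.68, Twist1 -0.48 and Lhx9 -0.42, as log2 fold changes) and 1 rose (Prrx1, 0.49), with a median of -0.39. Their part in the levels of the members was not tested. Across all genes, 16166 were tested between mutant and wild type, 617 rose and 540 fell.

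Hand2 fell in the mutant and was the member that passed the test. It measured 106 and 103 CPM in the wild-type libraries and 81.7 and 69.3 in the mutant libraries, a mean of 104 ± 2.6 (SD, n = 2) against 75.5 ± 8.82. Both mutant libraries lay below both wild-type libraries, and 49.5% of all genes tested had groups that do not overlap. The log2 fold change was -0.48 (SE 0.10, 95% interval -0.70 to -0.27), or 0.716-fold, with an adjusted p of 0.0114 by edgeR's quasi-likelihood test over all genes tested. Of the 7 members tested, 1 fell and 0 rose, beside 3.34% of all genes tested that fell and 3.82% that rose. The call ended without mutant replicate 2, where the log2 fold change was -0.36 with an adjusted p of 0.189. In tissue of mixed cells, fewer cells that express a gene and less of its RNA per cell cannot be told apart, here and in the results that follow.

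**Figure D1:**
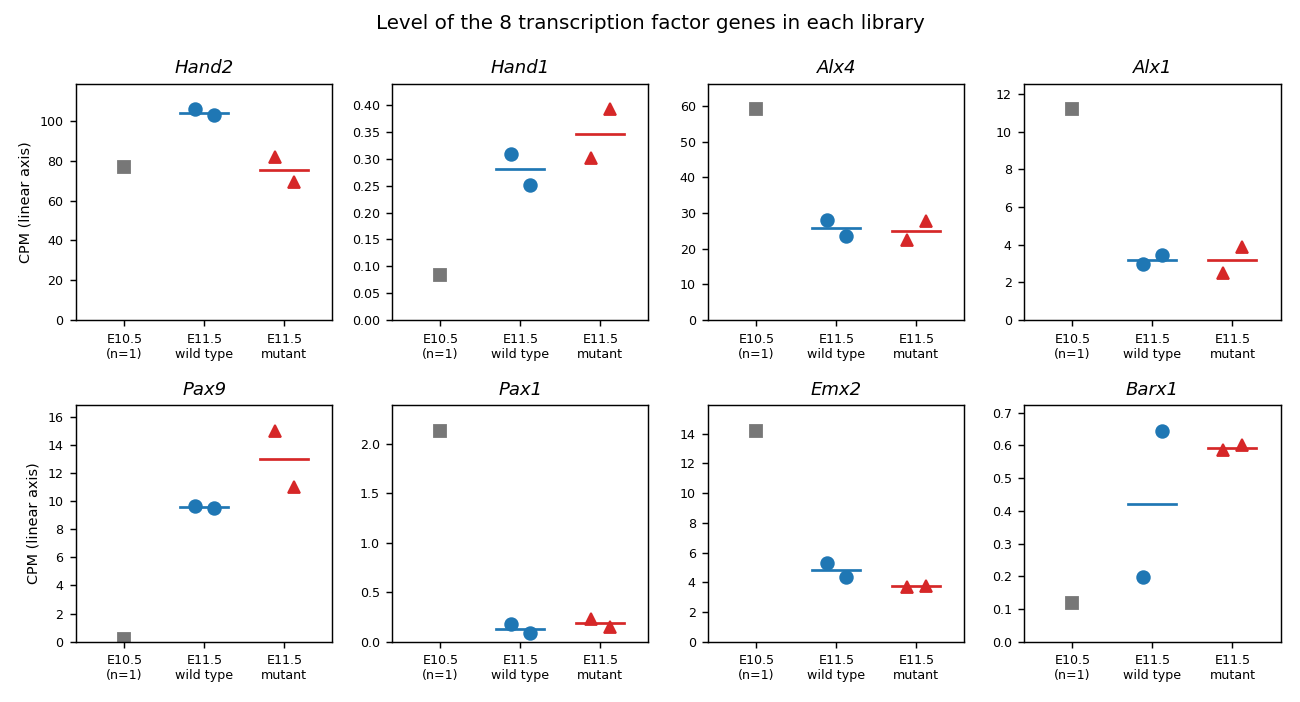
CPM of each of the 8 genes in every library, on linear axes that start at 0 and differ between panels; squares are the single E10.5 library, circles and triangles the wild-type and mutant libraries at E11.5, and lines the means of 2 libraries. Hand2 shows both mutant libraries (81.7 and 69.3) below both wild-type libraries (106 and 103), while Pax9 is at 0.190 CPM at E10.5 and at 9.49 or more in every E11.5 library.

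At E10.5 Hand2 measured 76.9 CPM, inside the range of the mutant libraries on this scale. After TMM scaling, which corrects for the make-up of the libraries, the E10.5 value was 0.21 below the wild-type mean on the log2 scale. With the same scaling it was 0.29 above the mutant mean. The difference from wild type did not reach the 2-fold difference used for this single library. The promoter of Hand2 is shown because it is the promoter of the member that fell. The sequences come from RefSeq (GRCm38.p6), where 5 of the 8 members had an entry, and each runs from 250 bases before to 50 bases after the annotated start. That of Hand2 is chr8:57320733-57321032 on the + strand, with capitals at the motif matches named next.
Hand2: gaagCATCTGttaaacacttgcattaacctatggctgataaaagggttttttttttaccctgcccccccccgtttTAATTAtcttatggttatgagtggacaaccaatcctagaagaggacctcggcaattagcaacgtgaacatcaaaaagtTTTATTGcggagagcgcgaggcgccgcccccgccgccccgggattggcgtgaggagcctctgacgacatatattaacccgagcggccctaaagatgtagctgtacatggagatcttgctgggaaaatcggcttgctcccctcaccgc
The following 4 short motifs were searched on both strands: CAATAAA, of the kind HOX13 proteins bind; CCACCCA, from the GLI site; CATCTG, an E-box of the kind Hand proteins bind; and TAATTA, a core that many homeodomain proteins bind. Positions give the leftmost base of a match counted from the start site. The Hand2 promoter held the HOX13-type motif at -97 (as TTTATTG), the homeodomain core at -175 and the E-box at -246, with no overlap between them. Among 32851 promoters of this length, 4.60% held the HOX13-type motif, 5.29% the homeodomain core, 17.2% the E-box and 9.30% the GLI-type motif. A match describes letters in the sequence, not a bound site.

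Hand1 was barely detected. It had 14 counts in each wild-type library, 18 and 19 in the mutant libraries and 7 at E10.5, which is 0.310 and 0.251 CPM, 0.301 and 0.393, and 0.0832. The mutant and wild-type ranges overlapped, and the log2 fold change of 0.29 (SE 0.49, adjusted p = 0.821) had a 95% interval of -0.79 to 1.37. The interval holds changes of more than 2-fold in the upward direction, so that a rise of that size is not excluded at these counts. The wild-type level was 3.33 times the E10.5 level, with an exact 95% interval of 1.42 to 9.04 that covers counting error only. The E10.5 value was called lower by the 2-fold rule (log2 difference -1.24), and with a prior count of 5 in place of 2 the difference was -0.98 and the call ended.

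Alx4 and Alx1 did not pass the test in the mutant and were higher at E10.5. Alx4 measured 28.0 and 23.7 CPM in wild type and 22.4 and 27.8 in the mutant. These ranges nearly coincided, and the log2 fold change of -0.05 (SE 0.13, adjusted p = 0.884) had a 95% interval of -0.33 to 0.22. Alx1 measured 2.97 and 3.44 CPM in wild type and 2.49 and 3.89 in the mutant, so that the wild-type values lay between the mutant values. Its log2 fold change was -0.03 (SE 0.25, adjusted p = 0.969, 95% interval -0.58 to 0.51).

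Both genes stood at their highest level at E10.5. The E10.5 library held 59.2 CPM of Alx4 and 11.2 of Alx1. The differences from the wild-type mean were 1.43 and 2.03 on the log2 scale, each at least 2-fold from both wild-type libraries.

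**Figure D2:**
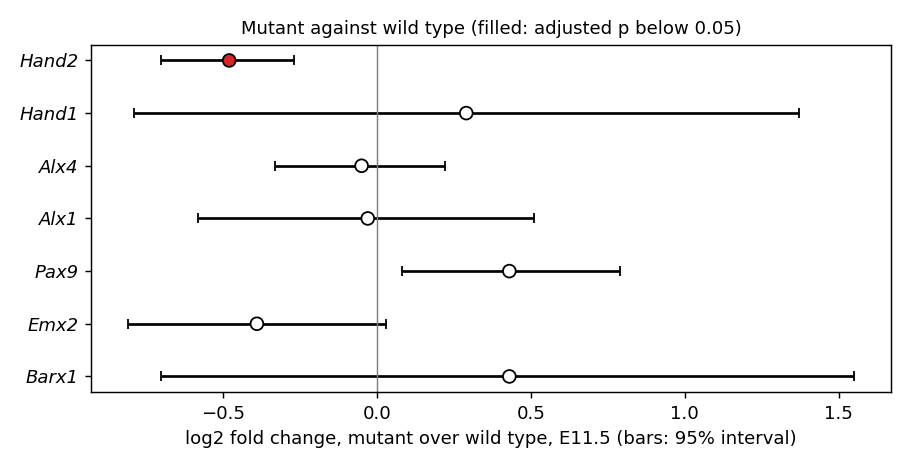
Log2 fold change of the 7 members tested, mutant over wild type at E11.5, with 95% intervals from edgeR's quasi-likelihood fit; the filled point passed an adjusted p of 0.05. Hand2 (-0.48) lies below 0 with its whole interval. The interval of Pax9 (0.08 to 0.79) lies above 0, though Pax9 did not pass the test. Alx4 (-0.05) has a narrow interval around 0, and the intervals of Hand1 and Barx1 are wide.

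Pax9 had the largest difference between the stages among the members. It measured 0.190 CPM (16 counts) at E10.5, 9.62 and 9.49 in wild type and 15 and 11 in the mutant. The E10.5 level was far below all 4 libraries of E11.5, and both mutant libraries were above both wild-type libraries. The wild-type level was 50.2 times that at E10.5 by CPM (exact 95% interval 30.8 to 88.2, counting error only), and the log2 difference was -5.21 after TMM scaling. The higher level in the mutant did not pass the test: the log2 fold change was 0.43 (SE 0.16, 95% interval 0.08 to 0.79, adjusted p = 0.151, unadjusted p = 0.0202). It was called in the fit without a filter on low counts (adjusted p = 0.0489) and without mutant replicate 2 (0.65, adjusted p = 0.0329), and was 0.18 without mutant replicate 1. Groups that do not overlap were common here, since 49.5% of all genes tested had them.

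Pax1 ran the other way. It had 179 counts at E10.5 (2.13 CPM), 8 and 5 in wild type (0.177 and 0.0895 CPM) and 14 and 7 in the mutant (0.234 and 0.145). The E10.5 level was 16.5 times the wild-type level (exact 95% interval 9.41 to 31.6, counting error only), and the E11.5 groups overlapped. Pax1 did not pass the filter on low counts in the mutant comparison. Without that filter its log2 fold change was 0.54 with an adjusted p of 0.823 and a 95% interval of -1.19 to 2.27. AI646519, annotated on the opposite strand across 869 bases of Pax1, was at 0.273 CPM at E10.5 and at 0 in 3 of the 4 E11.5 libraries.

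The promoters of the 2 paralogues are shown because their levels ran in opposite directions between the stages. That of Pax9 is chr12:56695221-56695520 and that of Pax1 is chr2:147364744-147365043, both on the + strand of GRCm38.p6, with capitals at motif matches.
Pax9: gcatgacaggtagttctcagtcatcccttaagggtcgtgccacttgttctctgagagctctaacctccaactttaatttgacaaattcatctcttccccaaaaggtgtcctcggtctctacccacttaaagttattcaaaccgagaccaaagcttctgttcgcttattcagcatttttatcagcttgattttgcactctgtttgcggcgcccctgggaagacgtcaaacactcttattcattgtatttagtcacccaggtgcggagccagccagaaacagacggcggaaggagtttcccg
Pax1: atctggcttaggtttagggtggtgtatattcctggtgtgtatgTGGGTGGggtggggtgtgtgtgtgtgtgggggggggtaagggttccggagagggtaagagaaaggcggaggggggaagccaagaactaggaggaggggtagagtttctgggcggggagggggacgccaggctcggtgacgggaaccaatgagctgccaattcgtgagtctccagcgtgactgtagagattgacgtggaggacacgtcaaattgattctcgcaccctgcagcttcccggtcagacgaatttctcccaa
The Pax9 window held none of the 4 motifs. The Pax1 window held the GLI-type motif at -207, read as TGGGTGG. Its GC content was 57.3% and that of the Pax9 window 47.0%, beside a median of 52.7% over all promoters. Having none of these letters in a window of 300 bases says nothing about a factor's binding elsewhere.

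Slc25a21, a mitochondrial carrier gene that lies tail to tail with Pax9 and is known to hold Pax9 enhancers in its introns, rose in the mutant. It measured 2.11 and 1.97 CPM in wild type and 4.11 and 4.72 in the mutant (log2 fold change 1.10, SE 0.21, adjusted p = 0.0081). The 2 genes are annotated on opposite strands and overlap by 189 bases. The libraries were strand-specific per the labels' protocols, but no source used here gives the strand setting of the counting, so overlapping pairs are uncertain. That holds as well for Hand2 and Hand2os1 (overlap 3251 bases), Alx4 and Ext2 (20312 bases) and Emx2 and Emx2os (264 bases). Hand2os1 was not analysed here. Ext2, which encodes an enzyme of heparan sulfate synthesis, had a log2 fold change of -0.24 (adjusted p = 0.365).

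Emx2 was lower in both mutant libraries than in both wild-type libraries without passing the test. Such groups without overlap were found for 49.5% of all genes tested. Emx2 measured 5.30 and 4.39 CPM in wild type and 3.71 and 3.73 in the mutant, which is -0.39 on the log2 scale (SE 0.19, adjusted p = 0.294, 95% interval -0.81 to 0.03). At E10.5 it stood at 14.2 CPM, a log2 difference of 1.79 from wild type. Its antisense neighbour Emx2os measured 2.95 CPM at E10.5, 5.28 and 3.65 in wild type and 4.08 and 5.11 in the mutant. Emx2os did not share the high level of Emx2 at E10.5.

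Barx1 was low and uneven between the wild-type libraries. It had 9 and 36 counts in wild type (0.199 and 0.645 CPM), 35 and 29 in the mutant (0.585 and 0.600) and 10 at E10.5 (0.119). The mutant values lay between the wild-type values. The log2 fold change of 0.43 (SE 0.52, adjusted p = 0.736) turned to -0.16 without wild-type replicate 1 and was 1.57 without wild-type replicate 2. The E10.5 value lay 0.41 below wild-type replicate 1 and 1.97 below wild-type replicate 2 on the log2 scale, so that it was not called. The related gene Barx2 rose, from 1.53 and 1.97 to 3.79 and 4.02 CPM (1.13, SE 0.23, adjusted p = 0.0121).

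Between the stages 6 of the 8 members differed at least 2-fold from both wild-type libraries. The 4 that were higher at E10.5 were Pax1 (3.96), Alx1 (2.03), Emx2 (1.79) and Alx4 (1.43), and the 2 that were lower were Pax9 (-5.21) and Hand1 (-1.24), as log2 differences. Over all 16738 genes compared, 3.86% were higher by this rule and 12.9% were lower. The median difference of the members was 0.61, beside -0.02 over all genes. With scaling by library size alone the all-gene median was -0.25, 412 genes were higher and 2640 lower in place of 646 and 2155, and the same 6 members were called. Stage, dissected part and strain label changed together and cannot be told apart. There was 1 library at E10.5, so the differences have no replicate check.

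**Figure D3:**
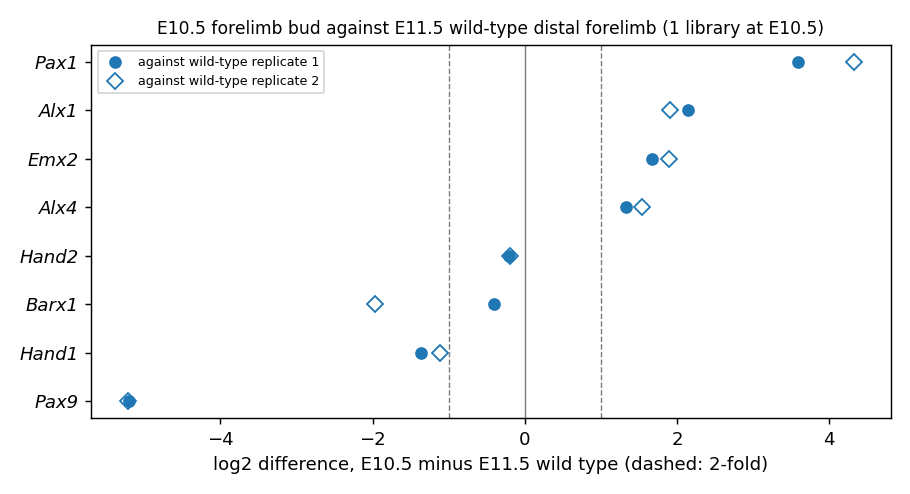
Log2 difference of the single E10.5 library from each wild-type library at E11.5 (TMM-scaled CPM, prior count 2), with dashed lines at 2-fold. Pax1, Alx1, Emx2 and Alx4 lie to the right of the 2-fold line for both libraries, Pax9 and Hand1 to the left, Hand2 near 0, and the Barx1 points lie apart from each other.

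Genes of the proximal bud and shoulder region differed in the same comparison. Of 9 genes of that list, 5 were higher at E10.5 and 0 lower, beside 3.86% and 12.9% of all genes compared. Gli3, Hoxa9, Shox2 and Tbx18 were not called. The summed level of the list was 1110 CPM at E10.5 and 525 and 480 in wild type. Meis1, a proximal homeodomain gene named after its value was seen, measured 107 CPM at E10.5 and 21.8 and 15.2 in wild type. Pkdcc, named in the same way, measured 255 CPM at E10.5 and 12.3 and 5.19 in wild type, and so made up much of the difference in the sum. Of 8 genes of sclerotome and somite, 2 were higher and 4 lower at E10.5, with a summed level of 57.4 CPM against 120 and 129 in wild type. Most of that sum was Meox2 (37.8 CPM against 110 and 117), and the other 7 genes together ran the other way, at 19.6 CPM against 9.86 and 11.7. None of these 8 genes was at 0 in any library. The part of such tissue in the levels of Pax1, Emx2, Alx1 and Alx4 was not tested. In the mutant comparison the proximal list summed to 613 and 620 CPM, with 1 of 9 genes risen (Gli3) and 0 fallen. Over all genes tested between mutant and wild type 3.82% rose and 3.34% fell. Without Gli3 the other 8 genes summed to 404 and 413 CPM in the mutant and 398 and 366 in wild type.

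Set per length of exon, Hand2 was the most abundant member in all 5 libraries. In RPKM (CPM divided by the exon length in kb), it measured 45.2 and 43.7 in wild type. Alx4 followed with 3.97 and 3.35, then Pax9 (1.90 and 1.88), Emx2 (1.76 and 1.46) and Alx1 (0.516 and 0.597). Barx1 (0.143 and 0.461) and Hand1 (0.155 and 0.126) overlapped, and Pax1 was lowest with 0.0395 and 0.0199. Each other pair of neighbours in this order was separated in both wild-type libraries. At E10.5 the order was Hand2 (32.7 RPKM), Alx4 (8.38), Emx2 (4.73), Alx1 (1.94), Pax1 (0.473), Barx1 (0.0849), Hand1 (0.0416) and Pax9 (0.0376). Barx1, Hand1 and Pax9 rest on 10, 7 and 16 counts at E10.5, so no order among these genes is read. Pax9 stood far below Emx2 at E10.5 and above it in every E11.5 library. In mutant replicate 1 its level of 2.97 RPKM came near the 3.18 of Alx4.

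**Figure D4:**
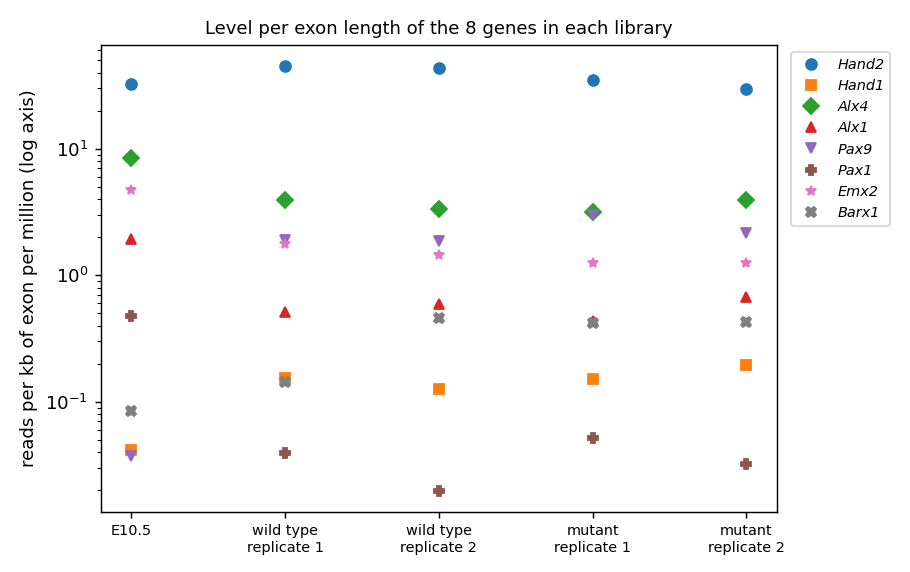
RPKM of the 8 genes in the 5 libraries on a log axis, with exon lengths from GENCODE M21. Hand2 is on top throughout, Pax9 moves from 0.0376 at E10.5 to between 1.88 and 2.97 at E11.5, and Pax1 from 0.473 to between 0.0199 and 0.0521.

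The members were compared with each other by the root mean square difference of their log2 profiles over the 5 libraries, each centred on its own mean. Alx4 and Emx2 (0.271), Alx1 and Emx2 (0.293) and Alx1 and Alx4 (0.294) were the pairs most alike, and Pax1 and Pax9 (3.674) the pair least alike. Among all genes the profile nearest to Hand2 was that of Maml2 (0.030), a Notch coactivator, followed by Zrsr1 (0.034) and Zfp612 (0.045). Nearest to Pax1 were Hoxc4 (0.147), Fnd3c2 (0.198) and Hoxc5 (0.219). Nearest to Alx4 were Cobll1 (0.045), Nr6a1 (0.051) and Lhfp (0.072), and nearest to Pax9 were Ceacam19 (0.189), H2-T3 (0.229) and Gm12185 (0.246). At E10.5 these neighbours of Pax9 measured 0.0119, 0 and 0.0356 CPM, so their likeness to Pax9 rests on very few reads in that library. Hoxc4 measured 9.77 CPM at E10.5 and 0.931 and 0.448 in wild type, and so stood higher at E10.5, as Pax1 did. These likenesses rest on 5 libraries, 1 of them of another stage, and are a description.

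Other genes listed for the anterior side of the bud were compared as well. Of 10 tested, 6 rose and 1 fell, with a median log2 fold change of 0.56 beside 0.00 over all genes. Over all genes tested 3.82% rose and 3.34% fell. This list too was chosen with earlier results of these data known, so its counts describe only the genes listed. Gli3 measured 127 and 114 CPM in wild type and 209 and 207 in the mutant (0.77, SE 0.08, adjusted p = 0.000158). Asb4, a ubiquitin ligase component, measured 218 and 294 CPM in wild type and 504 and 492 in the mutant (0.94, SE 0.13, adjusted p = 0.000783). Zbtb16, a zinc-finger repressor gene, measured 3.77 and 4.41 CPM in wild type, 8.21 and 8.09 in the mutant and 17.9 at E10.5 (0.98 in the mutant, SE 0.17, adjusted p = 0.00483). Msx2, a homeodomain gene that responds to BMP, was the one that fell (48.6 and 41.3 to 26.1 and 21.5 CPM; -0.93, SE 0.12). At E10.5 Asb4 stood at 590 CPM and was called higher by the 2-fold rule (log2 difference 1.45). Gli3 stood at 164 CPM and was not called (0.68). Alx1, Alx4 and Pax9, the anterior members, did not pass the test, as said.

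Of 15 genes listed for the posterior side 5 rose, 1 fell and 9 did not pass the test, with a median of 0.13. The shares over all genes tested were 3.82% risen and 3.34% fallen, and this list was chosen in the same way. Shh measured 1.66 and 1.86 CPM in wild type, 7.44 and 5.61 in the mutant and 6.83 at E10.5. The rise of Shh (1.87, SE 0.22, adjusted p = 0.000284) and the fall of Hand2 therefore stood side by side in the same libraries. The Shh receptor and target gene Ptch1 had 80.8 and 50.4 CPM in wild type and 83.9 and 76.1 in the mutant. These ranges overlapped, and Ptch1 did not pass the test (0.28, adjusted p = 0.375). Its log2 fold change hung on the wild-type library used, at 0.63 against replicate 2 alone and 0 against replicate 1 alone. Gli1 (0.01, adjusted p = 0.98) and Hhip (0.13, adjusted p = 0.728), of the same list, did not pass the test. Both were named after their values were seen. The ridge growth factor Fgf4 (4.06) and Hoxd10 (0.82), Grem1 (0.72) and Hoxd11 (0.60) also rose. The call of Hoxd11 ended without mutant replicate 1 (0.43, adjusted p = 0.0966).

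The T-box genes Tbx2 and Tbx3, which lie with Hand2 in the posterior network, gave different results. Tbx2 fell: it measured 32.9 and 20.6 CPM in wild type and 16.1 and 10.7 in the mutant (-1.0, SE 0.21, adjusted p = 0.013). Its call ended with DESeq2 (adjusted p = 0.157) and with scaling by library size alone (0.053). Tbx3 measured 26.2 and 20.4 CPM against 21.4 and 20.7, a log2 fold change of -0.16 with an adjusted p of 0.558. Hoxd12 had -0.36 with an adjusted p of 0.119, and was called when mutant replicate 1 was left out (-0.55, adjusted p = 0.00884). It was also called when wild-type replicate 2 was left out (-0.48, adjusted p = 0.00905) and without the filter on low counts (-0.36, adjusted p = 0.0117).

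**Figure D5:**
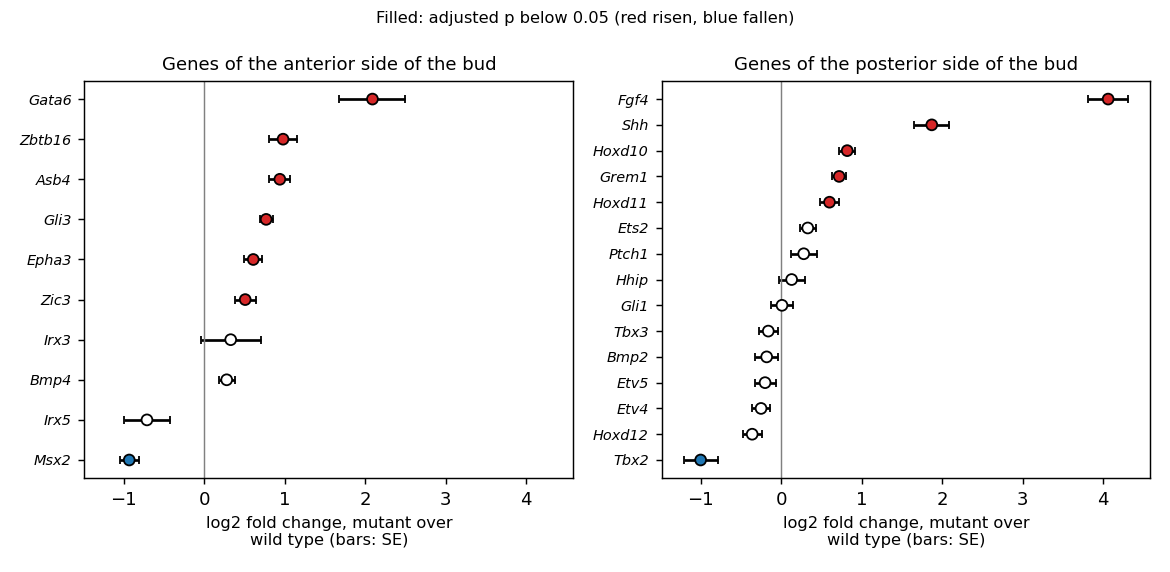
Log2 fold change, mutant over wild type at E11.5, with SE for the tested genes of the anterior list (left) and the posterior list (right); filled points passed an adjusted p of 0.05. On the left 6 of 10 points are filled to the right of 0 and Msx2 to the left, and on the right 5 of 15 are filled to the right and Tbx2 to the left.

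A further list held 11 genes whose proteins pair with Hand or Alx factors, or block bHLH pairing. Of these 1 rose, 5 fell and 5 did not pass the test, with a median of -0.15. Over all genes tested 3.82% rose and 3.34% fell. The list was chosen with earlier results of these data known, so its counts describe only the genes listed. Twist1, a bHLH partner and antagonist of Hand2, measured 111 and 99.2 CPM in wild type and 79.8 and 72.0 in the mutant (-0.48, SE 0.09, adjusted p = 0.00803). Its mutant values lay below both wild-type values, and 49.5% of all genes tested had groups that do not overlap. Id1 (-0.75) and Id3 (-0.60), inhibitors of bHLH pairing, fell as well. Prrx1 (0.49), a homeodomain gene of the limb mesenchyme, rose. The call of Twist1 ended without mutant replicate 2 (-0.40, adjusted p = 0.108), as did that of Hand2, and 2 rather than 5 genes of the list fell in that fit (3 without mutant replicate 1).

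Hand2 and Hand1 are also genes of sympathetic neurons and of the heart, so markers of both were measured. The lists of this paragraph were chosen with earlier results of these data known, and over all genes tested 3.34% fell and 3.82% rose. The 6 sympathetic neuron genes summed to 35.5 and 40.9 CPM in wild type and 14.9 and 15.7 in the mutant, and 2 of the 5 tested, Tubb3 (-1.54) and Stmn2 (-1.57), fell. Both are general neuronal genes. Of the defining genes, Dbh was at most 0.0414 CPM and Phox2a at most 0.331. Th measured 0.111 and 0.233 CPM in wild type, 0.217 and 0.497 in the mutant and 0.677 at E10.5, where it was called higher. Neither Phox2a (0.40, adjusted p = 0.797) nor Th (0.96, adjusted p = 0.451) passed the test in the mutant, and their values lay above 0 where the list's sum was lower. Of the heart genes, Nkx2-5 was at 0 in the 4 E11.5 libraries, and the list summed to 4.79 and 4.82 CPM in wild type and 2.17 and 4.10 in the mutant. Nearly all of that was Tnnt2 (4.17 and 3.90 CPM, and 1.59 and 3.64), and the other 5 genes summed to at most 0.913 CPM in any library. Of the facial mesenchyme list, relevant to Barx1, Alx1 and Alx4, Gsc was the one of 6 genes that passed the test, and it rose, from 2.66 and 6.63 CPM in wild type to 10.9 and 11.2 in the mutant (1.21, adjusted p = 0.0331). With wild-type replicate 1 left out its log2 fold change was 0.69, and with replicate 2 left out in its place it was 2.06. The call of Gsc ended with DESeq2 (adjusted p = 0.319) and with library size alone (0.0754). The part of these cells in the members' levels was not tested.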

How the data were processed

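RNA was measured in 5 forelimb libraries. Per the labels' protocols, RNA was ribosome-depleted and made into strand-specific libraries with 8 cycles of PCR, read for 50 cycles from both ends. The submitters' processing notes name mm9 and HTSeq, SAMtools, TopHat2 (2.0.13) and Cufflinks (2.1.1). The authors deposited raw counts per gene symbol, as whole numbers. Neither library sizes nor tests used the 5 HTSeq summary lines, among which unassigned reads (no feature) made up 24.3% to 39.6% of a table's sum.

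Mutant and wild type at E11.5 were compared with edgeR 4.0.16 in R 4.3.3, using its quasi-likelihood F test, on the 4 libraries, after filterByExpr (minimum count 10, minimum total 15) and TMM, with Benjamini-Hochberg adjustment over all genes tested. A gene rose or fell at an adjusted p below 0.05. The SE and the 95% interval come from the F statistic. CPM are scaled to library size, and SD is over 2 libraries. E10.5 was compared by a 2-fold rule against each wild-type library on log2 CPM after TMM scaling (prior count 2). The fits were tested on simulated data whose changed genes differed by at least 2-fold. Changes as small as that of Hand2 were not simulated. The members and the 16 other gene lists were chosen with earlier results of these data known. Some genes of the lists are not reported here and enter no list count. Named were all members, up to 3 risen and 3 fallen genes of smallest adjusted p per list, fixed genes of the axis network, and genes next to or antisense to a member. Symbols were matched by name, 1 of them by an older name. Gene overlaps, neighbours and exon lengths came from GRCm38 annotation (GENCODE M21 and RefSeq), not mm9, so no gene coordinates are given other than those of the promoter sequences. The p-values set the genotype difference against the spread between the 2 pools of a genotype. That spread was estimated with information shared between genes. Alternatives were DESeq2 1.42.0, other scalings, no filter, the newer quasi-likelihood estimate, all 5 libraries, a replicate block and leaving out each library.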

Additional observations from a re-analysis of the deposited data

How the results depend on the processing

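Across the alternatives run, 1 member was called in the mutant comparison in every fit apart from the one without a filter on low counts, where 2 were called (Pax9 added). The one called was Hand2, except without mutant replicate 2, where it was Pax9. Leaving out 1 library gave a count of 1 throughout, and the count over all genes ranged from 796 to 2018 in place of 1157, with 2018 without wild-type replicate 1. Without the filter it was 1762, with more genes tested. The stage comparison called 5 to 7 members in place of 6 (5 with a prior count of 5; 6 to 7 leaving out a wild-type library). With 1 library left out, the log2 fold change, lowest to highest, was -0.38 to 0.26 for Alx1, -0.21 to 0.09 for Alx4, -0.16 to 1.57 for Barx1, -0.61 to -0.36 for Hand2 and -0.50 to -0.28 for Emx2. Signs also turned for genes that had not been called: -0.30 to 0 for Tbx3, -0.05 to 0.21 for Sap30l, -0.09 to 0.34 for Larp1, -0.11 to 0.10 for Fbxo8 (0.01 with library size alone), -0.65 to 0.40 for Nkx2-9, -0.19 to 0.28 for Emx2os and -0.14 to 0.24 for Phf2. With the replicate number as a block, 1252 genes were called in place of 1157 and Hand2 remained the member called, and Hoxd12 was called too (-0.36, adjusted p = 0.017). Same-numbered libraries deviated from their group means with a correlation of -0.07 over genes, so the numbers are not read as pairs. Hand1, Barx1 and Pax1 are limited by counts of 5 to 36 in the E11.5 libraries.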

Other observations

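Of the genes next to the members on the chromosome whose values are not given above, 1 passed the test. Ptpdc1, a phosphatase gene beside Barx1, rose in the mutant (25.2 and 26.7 to 36.3 and 34.0 CPM, or 0.42 ± 0.10 (SE) on the log2 scale, adjusted p = 0.0297). Its call ended without mutant replicate 1 (adjusted p = 0.239) and without mutant replicate 2 (0.0557). Phf2, on the other side of Barx1, had 0.04 with an adjusted p of 0.925. Fbxo8, beside Hand2, had -0.01 (adjusted p = 0.986), with 26.8 and 29.8 CPM in wild type and 28.9 and 28.1 in the mutant. Rassf9, beside Alx1, had 0.39 (adjusted p = 0.149) and was called without wild-type replicate 2 (0.55, adjusted p = 0.027). Nkx2-9, the homeodomain gene beside Pax9, stood at 0 counts at E10.5 and between 0.143 and 0.310 CPM at E11.5. The 2 genes beside Hand1, Sap30l and Larp1, had 0.07 and 0.11 with adjusted p of 0.827 and 0.744, and Larp1 was called without wild-type replicate 1 (0.34, adjusted p = 0.0392).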
